A study of Mus musculus with 24 samples.

Results

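The ERBB receptors and the EGF-like ligands that bind them were followed across the 8 groups of NIH 3T3 libraries. NIH 3T3 is an immortalized line of mouse embryonic fibroblasts. The genes were taken by their Ensembl identifiers and are 10 of the 39017 identifiers counted in each library, namely the receptors Egfr, Erbb2 and Erbb3 and the ligands Areg, Ereg, Hbegf, Nrg1, Tgfa, Btc and Epgn. Each group held 3 libraries of polyadenylated RNA from pooled stable lines that had been transduced separately with a retroviral vector and selected with G418. The lines carried an empty vector (EV, and EVsub in the sub-confluent state), TAZ4SA, TAZ-CAMTA1, CAMTA1, YAP5SA, YAP-TFE3 or TFE3. TAZ4SA and YAP5SA are activated forms of the co-activators TAZ and YAP, in which serines that the LATS1/2 kinases phosphorylate were changed to alanine. TAZ-CAMTA1 and YAP-TFE3 are the fusion proteins of the sarcoma epithelioid hemangioendothelioma. The CAMTA1 lines and EVsub were collected at sub-confluence and all other lines after 48 h of confluence, so CAMTA1 is set against EVsub and the other proteins against EV. In these bulk libraries, fewer cells that express a gene and less RNA per cell cannot be told apart.

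The receptors of this family are tyrosine kinases that pair at the cell surface when a ligand binds. EGFR is bound by amphiregulin (Areg), epiregulin (Ereg), HB-EGF (Hbegf), TGF-alpha (Tgfa), betacellulin (Btc) and epigen (Epgn), and ERBB3 is bound by neuregulins such as NRG1. ERBB2 has no known ligand and acts as a partner of the others, while ERBB3 has a weak kinase domain and signals through its partners to PI3-kinase. The ligands are made as membrane proteins and are cut free by metalloproteases, after which they act on the same cell or its neighbours. Amphiregulin and other ligands of EGFR are known targets of YAP and TAZ in epithelial cells.

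What makes these ligands a family is a stretch with 6 cysteines, spaced alike, which forms the EGF-like domain. The coding sequence of that stretch is shown for the 4 ligands that lie side by side on chromosome 5, of which Ereg and Btc were tested and Areg and Epgn were too low, and for Nrg1. Capitals mark the 6 cysteine codons, and the sequences were read 5′ to 3′ on the coding strand from the GENCODE M21 transcripts of GRCm38 (mm10). Each stretch is coded by 2 exons, so the coordinates given with it span an intron.
Ereg, codons 61 to 96, chr5:91088496-91089111, + strand: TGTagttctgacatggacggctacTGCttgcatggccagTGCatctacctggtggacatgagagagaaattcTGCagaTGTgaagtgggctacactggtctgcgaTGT
Areg, codons 139 to 174, chr5:91143614-91144364, + strand: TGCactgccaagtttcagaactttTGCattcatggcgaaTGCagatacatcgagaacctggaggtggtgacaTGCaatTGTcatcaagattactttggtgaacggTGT
Epgn, codons 59 to 94, chr5:91031152-91032237, + strand: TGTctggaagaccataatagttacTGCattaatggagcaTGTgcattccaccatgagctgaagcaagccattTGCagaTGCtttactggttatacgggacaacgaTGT
Btc, codons 69 to 104, chr5:91362421-91366197, - strand: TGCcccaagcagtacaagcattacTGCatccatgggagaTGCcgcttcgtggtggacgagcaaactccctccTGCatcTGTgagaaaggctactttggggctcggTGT
Nrg1, codons 237 to 276, chr8:31837698-31849398, - strand: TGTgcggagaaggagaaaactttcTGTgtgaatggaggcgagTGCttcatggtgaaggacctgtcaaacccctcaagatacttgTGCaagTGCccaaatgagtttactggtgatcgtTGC
The stretch spans 36 codons in Ereg, Areg, Epgn and Btc and 40 codons in Nrg1. The pattern was also found in Tgfa and Hbegf, over 36 codons each.

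The libraries held between 16471181 and 30132586 counts (median 22298975). Levels are given as CPM, the counts of a gene per 1000000 counts of its library, after TMM normalization, which corrects the library total for its composition. A gene was called differentially expressed (DE) where edgeR's quasi-likelihood test gave a Benjamini-Hochberg adjusted p under 0.05 over the 14361 genes tested, whose counts averaged 5 or more per library. A group in which no library had more than 3 counts is said to be at the floor. Fibroblast markers were abundant as a sum in every group, with 10 markers together between 21068 and 60508 CPM in every library. Single markers moved within that sum. Against EV, 4 of the 10 were DE and lower in each of TAZ4SA, YAP5SA and EVsub, and 1, 2 and 0 were higher. The shares of all genes DE there were 57.5%, 71.2% and 22.1%. Mean Postn was 2990 CPM in EV, 331 CPM in TAZ4SA and 64.2 CPM in YAP5SA. Markers of other cell types also moved with the introduced proteins, and Csf1r and Krt14 were DE and higher in EVsub than in EV as well. The sum of 4 endothelial markers was 8.31 to 12 CPM in TAZ4SA and 7.03 to 7.79 CPM in YAP5SA, mostly from Kdr, 1.62 to 2.61 CPM in TAZ-CAMTA1, mostly from Cdh5, 1.07 to 1.70 CPM in YAP-TFE3 and 0.804 to 1.15 CPM in TFE3, against 0.127 to 0.221 CPM in EV. The sum of 5 leukocyte markers was 30.6 to 53.5 CPM in YAP5SA and 3.60 to 8.93 CPM in TAZ4SA. It was 1.21 to 1.66 CPM in YAP-TFE3 and 0.803 to 2.53 CPM in EVsub, against 0.573 to 0.840 CPM in EV. These sums came mostly from Csf1r, which was not DE in YAP-TFE3 against EV, while Adgre1, a marker of macrophages, had no count in any library. The sum of 6 epithelial markers was 7.504 to 9.25 CPM in YAP5SA and 1.19 to 1.80 CPM in TAZ4SA, mostly from Krt14, and 0.849 to 1.36 CPM in TAZ-CAMTA1 and 1.00 to 1.15 CPM in YAP-TFE3, mostly from Cdh1, against 0.310 to 0.591 CPM in EV, while Epcam had no count in any library. Cdh1 went the other way in TAZ4SA and YAP5SA. It was DE and lower in both, with 0 to 1 counts per library against 3 to 6 in EV. The part of all these markers in the results below was not tested.

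The transcripts of Erbb2, Egfr and Nrg1 made up most of the family's RNA in EV, and the summed ligand level spanned a wider range over the groups than the summed receptor level. Compared per kilobase of exon, the summed level of the 3 receptors ranged from 13.6 ± 1.39 CPM per kb (SD, n = 3) in CAMTA1 to 21.5 ± 1.91 CPM per kb in TAZ-CAMTA1. The summed level of the 7 ligands ranged from 3.96 ± 0.141 CPM per kb in TFE3 to 21.4 ± 3.38 CPM per kb in TAZ-CAMTA1, with 5.25 ± 1.11 CPM per kb in EV. For the summed ligands, every library of TAZ4SA, TAZ-CAMTA1, YAP5SA, YAP-TFE3, EVsub and CAMTA1 lay above every EV library, and every TFE3 library lay below them. The sums are given as a description, with no test.

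**Figure D1:**
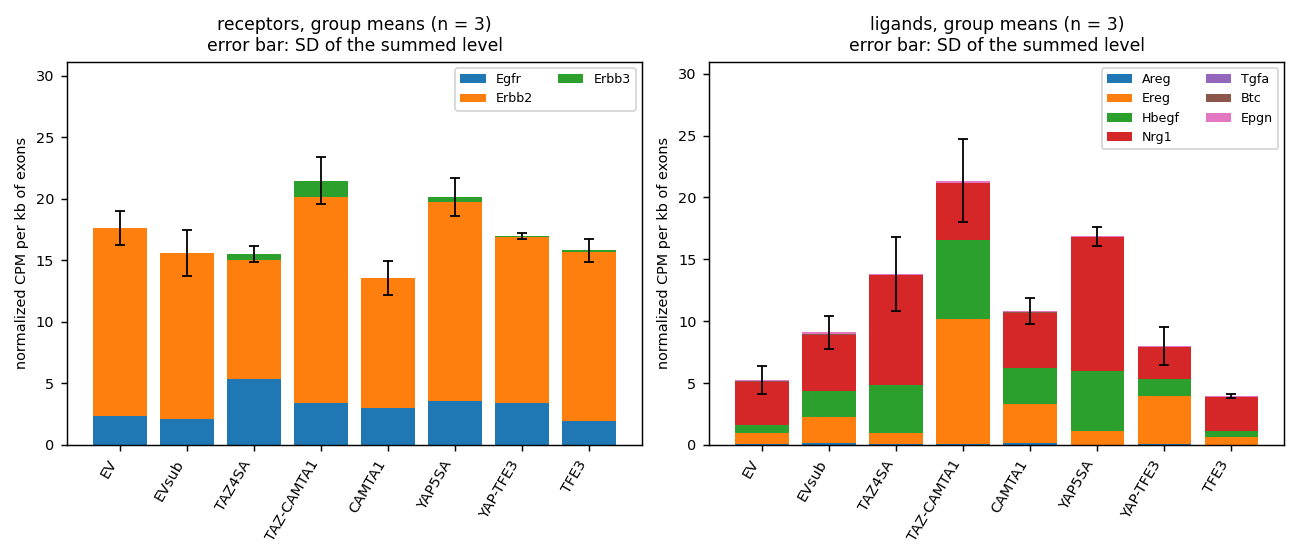
Stacked bars give the group mean level of each receptor (left) and each ligand (right) in normalized CPM per kb of exons, for the 8 groups with 3 libraries each, and the error bars give the SD of the summed level. Erbb2 fills most of each receptor bar, whereas the ligand bars differ in height and in make-up, with Ereg the largest share in TAZ-CAMTA1 and YAP-TFE3 and Nrg1 the largest in the other groups.

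The make-up of the ligand RNA also differed between groups, though not always in step with its amount. Nrg1 held 66.2 ± 6.87% (SD, n = 3) of the summed ligand level in EV and a similar share in TAZ4SA (63.7 ± 11.7%), YAP5SA (64.4 ± 2.83%) and TFE3 (69.6 ± 2.81%). In TAZ-CAMTA1 its share was 22.0 ± 2.36%, and in YAP-TFE3 it was 32.8 ± 9.97%. Ereg held 47.4 ± 2.70% in TAZ-CAMTA1 and 46.7 ± 12.3% in YAP-TFE3, against 17.2 ± 4.74% in EV, 6.16 ± 4.18% in TAZ4SA and 6.47 ± 0.983% in YAP5SA. For Ereg, the libraries of both fusion proteins lay above those of EV, TAZ4SA and YAP5SA without overlap. Hbegf held between 11.8 ± 1.27% in TFE3 and 29.6 ± 0.240% in TAZ-CAMTA1.

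Of the 10 genes, 7 averaged 5 counts or more over the 24 libraries and were tested, while Areg, Tgfa and Epgn were too low. Against EV, 6 of the 7 were DE in TAZ4SA (4 higher, 2 lower), where 57.5% of all genes tested were DE. In TAZ-CAMTA1, 4 of 7 were DE (3 higher, 1 lower), beside 21.5% of all genes. In YAP5SA, 5 of 7 were DE (4 higher, 1 lower), beside 71.2% of all genes, so that this share lies at the background. In YAP-TFE3, 2 of 7 were DE, both higher, beside 15.3% of all genes. In TFE3, 1 of 7 was DE and lower, beside 3.37% of all genes. That gene was Btc, for which DESeq2 gave no adjusted p in this comparison, and DESeq2 called Erbb3 there instead, as higher. In EVsub, 2 of 7 were DE and higher than in EV, beside 22.1% of all genes. CAMTA1 had none of the 7 DE against EVsub, where 2.18% of all genes were DE by edgeR, 2612 genes had an unadjusted p under 0.05 and DESeq2 called 1 of the 7, Erbb2. The median log2 fold change of the 7 was 1.17 in TAZ4SA, 0.53 in TAZ-CAMTA1, 0.59 in YAP5SA, 0.52 in YAP-TFE3 and -0.32 in TFE3, while over all genes tested it lay between -0.02 and 0.05. These comparisons share the EV libraries, so they are not independent of each other.

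The fusion proteins were also set directly against the proteins they derive from, since a call in one group and not in the other does not show a difference. TAZ-CAMTA1 differed from TAZ4SA in 6 of 7 genes (4 higher, 2 lower), beside 54.7% of all genes. YAP-TFE3 differed from YAP5SA in 6 of 7 (2 higher, 4 lower), beside 70.9% of all genes, and from TFE3 in 4 of 7, all higher, beside 22.9% of all genes. YAP-TFE3 was lower than TAZ-CAMTA1 in 4 of 7, beside 11.6% of all genes. YAP5SA and TAZ4SA differed in 2 of 7 (1 higher, 1 lower), beside 42.4% of all genes.

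**Figure D2:**
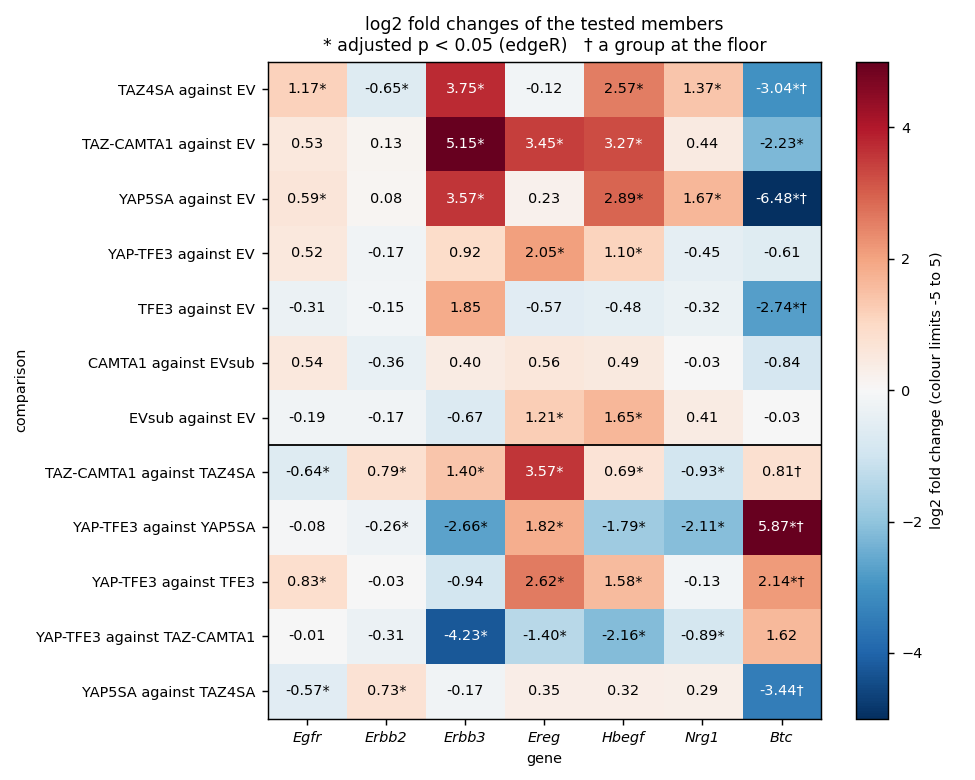
Rows are the 12 comparisons and columns the 7 tested genes, each cell gives the log2 fold change from edgeR with an asterisk where the adjusted p was under 0.05, and the colour scale ends at -5 and 5. Above the line are the comparisons with an empty vector or between the vectors, where Hbegf and Erbb3 were DE in TAZ4SA, TAZ-CAMTA1 and YAP5SA and Ereg in both fusion proteins; a dagger marks a group at the floor, where the size of the fitted value depends on the prior count.

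Among the receptors, Erbb3 differed most between groups. Its group means ran from 0.145 CPM in EVsub to 7.998 CPM in TAZ-CAMTA1. The gene (ENSMUSG00000018166, chr10:128567523-128589652, - strand) was at the edge of detection without an activator, with counts of 13, 0 and 2 in the EV libraries. The TAZ-CAMTA1 libraries held 6.91, 6.71 and 10.4 CPM, the TAZ4SA libraries 2.18, 2.62 and 4.22 CPM, and the YAP5SA libraries 3.18, 2.65 and 2.22 CPM. All of these lay above the highest EV library, at 0.549 CPM.

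Erbb3 rose by a log2 fold change of 5.15 ± 0.57 (SE) in TAZ-CAMTA1 (edgeR adjusted p = 8.2e-07), 3.75 ± 0.59 in TAZ4SA (adjusted p = 1.51e-05) and 3.57 ± 0.60 in YAP5SA (adjusted p = 1.55e-05). TAZ-CAMTA1 was also above TAZ4SA directly, by 1.40 ± 0.42 (edgeR adjusted p = 0.0077), with no overlap between the libraries. In YAP-TFE3, which carries the other fusion, the libraries held 0.902, 0.234 and 0.212 CPM and overlapped EV, with a log2 fold change of 0.92 ± 0.73 that did not pass the test (edgeR adjusted p = 0.468). YAP-TFE3 was below YAP5SA by 2.66 ± 0.54 on the log2 scale (edgeR adjusted p = 0.000141) and below TAZ-CAMTA1 by 4.23 ± 0.52 (adjusted p = 8.14e-06). The study named Erbb3 among genes unique to the transcriptomes of the fusion proteins and measured it by quantitative PCR. In these libraries Erbb3 was also DE in TAZ4SA and YAP5SA and was not DE in YAP-TFE3. Over 31 alternative fits with edgeR or DESeq2, its log2 fold change in YAP-TFE3 against EV ranged from -0.00699 to 3.06. None of these fits passed, with a lowest adjusted p of 0.0534, so the size of any change there is not settled. The study had itself picked out Erbb3, so these values are not independent evidence.

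The TFE3 libraries held 1.03, 0.844 and 0.593 CPM of Erbb3, each above the EV libraries, with a log2 fold change of 1.85 ± 0.66 that missed the threshold (edgeR adjusted p = 0.153). That call depended on the setting: it passed in DESeq2 (1.91, adjusted p = 0.0322) and in edgeR once genes of low count were kept (1.86, adjusted p = 0.0242). Without EV replicate 1, which had 13 counts, the log2 fold change was 3.996 with an adjusted p of 0.021 in edgeR, and the rises in TAZ4SA, TAZ-CAMTA1 and YAP5SA came to 5.89, 7.29 and 5.72, against 1 library at 0 and 1 at 2 counts. Without EV replicate 2, the library with no count, these 3 rises were 3.21, 4.61 and 3.04. Without YAP-TFE3 replicate 1 the gap to YAP5SA was -3.53 and that to TAZ-CAMTA1 was -5.12.

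Egfr was expressed in every group and was highest in TAZ4SA. The gene (ENSMUSG00000020122, chr11:16752203-16918158, + strand) gave 25.6, 29.4 and 25.7 CPM in EV and 57.8, 69.1 and 54.7 CPM in TAZ4SA. The TAZ4SA libraries lay above those of every other group. The rise was 1.17 ± 0.20 on the log2 scale in TAZ4SA (edgeR adjusted p = 4.16e-05) and 0.59 ± 0.20 in YAP5SA (adjusted p = 0.0116), where the libraries held 42.8, 40.7 and 38.3 CPM. With library totals in place of TMM the change in YAP5SA was 0.22 and no longer passed (edgeR adjusted p = 0.326).

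TAZ-CAMTA1 (38.8 ± 4.86 CPM, SD, n = 3) and YAP-TFE3 (38.5 ± 8.08 CPM) had Egfr means close to that of YAP5SA (40.6 ± 2.24 CPM). Their changes against EV, 0.53 ± 0.20 and 0.52 ± 0.20 on the log2 scale, missed the threshold (edgeR adjusted p = 0.0625 and 0.0863). Both passed when CAMTA1 replicate 1 or YAP-TFE3 replicate 3 was left out of the fit, with adjusted p of 0.0101 and 0.0152 in the first case and 0.0496 and 0.0277 in the second, and TAZ-CAMTA1 passed without CAMTA1 replicate 3 (adjusted p = 0.0428). Both also passed once genes of low count were kept (edgeR adjusted p = 0.0168 and 0.0240), and TAZ-CAMTA1 passed in a fit of only the groups compared (0.00801). TAZ-CAMTA1 was below TAZ4SA by 0.64 ± 0.20 (edgeR adjusted p = 0.00971, or 0.0527 without TAZ-CAMTA1 replicate 3 and 0.0548 with library totals). YAP-TFE3 was above TFE3 by 0.83 ± 0.20 (edgeR adjusted p = 0.00395) and differed from YAP5SA by -0.08, with an interval of -0.50 to 0.35. YAP5SA was below TAZ4SA by 0.57 ± 0.20 (edgeR adjusted p = 0.024), a call lost without TAZ4SA replicate 2 or YAP5SA replicate 2 or 3, at adjusted p of 0.0765, 0.0542 and 0.0756.

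The CAMTA1 libraries were the most uneven for Egfr, at 19.9, 38.0 and 44.5 CPM, against 22.9, 21 and 26.8 CPM in EVsub. Replicate 1 lay below all 3 EVsub libraries and the other two above them. The log2 fold change was 0.54 ± 0.20 (edgeR adjusted p = 0.164), and 0.81 with an adjusted p of 0.0129 without CAMTA1 replicate 1.

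Erbb2 was the steadiest of the receptors and the most abundant per length, at 9.69 to 16.7 CPM per kb in the group means against 1.91 to 5.34 for Egfr and 0.0241 to 1.33 for Erbb3. The gene (ENSMUSG00000062312, chr11:98412470-98437716, + strand) gave 77.9, 71.9 and 88.0 CPM in EV and 48.6, 49.7 and 53.1 CPM in TAZ4SA, without overlap. It fell in TAZ4SA by 0.65 ± 0.11 on the log2 scale (edgeR adjusted p = 3.15e-05). Egfr, which rose there, made up 34.4 ± 3.62% (SD, n = 3) of the summed receptor level per kb in TAZ4SA, against 13.6 ± 2.06% in EV.

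Erbb2 was higher in TAZ-CAMTA1 than in TAZ4SA by 0.79 ± 0.11 (edgeR adjusted p = 4.31e-06) and in YAP5SA than in TAZ4SA by 0.73 ± 0.11 (adjusted p = 2.6e-05). Neither TAZ-CAMTA1 (0.13, interval -0.09 to 0.36) nor YAP5SA (0.08, interval -0.15 to 0.31) differed detectably from EV. For YAP5SA the direction turned with the scaling: with library totals in place of TMM the log2 fold change was -0.29 (edgeR adjusted p = 0.0328). The small gap between YAP-TFE3 and YAP5SA, -0.26 ± 0.11 (edgeR adjusted p = 0.0399), turned to 0.10 under that scaling and was lost without any of 4 single libraries, YAP5SA replicate 1 or 3 and YAP-TFE3 replicate 1 or 2, at adjusted p from 0.0598 to 0.172.

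In CAMTA1 the Erbb2 libraries held 53.1, 56.2 and 55 CPM, all below the EVsub libraries at 61.1, 81.4 and 68.3 CPM. The log2 fold change of -0.36 ± 0.11 missed the threshold (edgeR adjusted p = 0.0835), and passed it without EVsub replicate 1 (-0.45, adjusted p = 0.0252). Exons of Mien1, on the opposite strand, overlap those of Erbb2. Mien1 had 151 to 400 counts per library against 663 to 2286 for Erbb2, and whether the counting used the strand is not given in the sources used here.

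**Figure D3:**
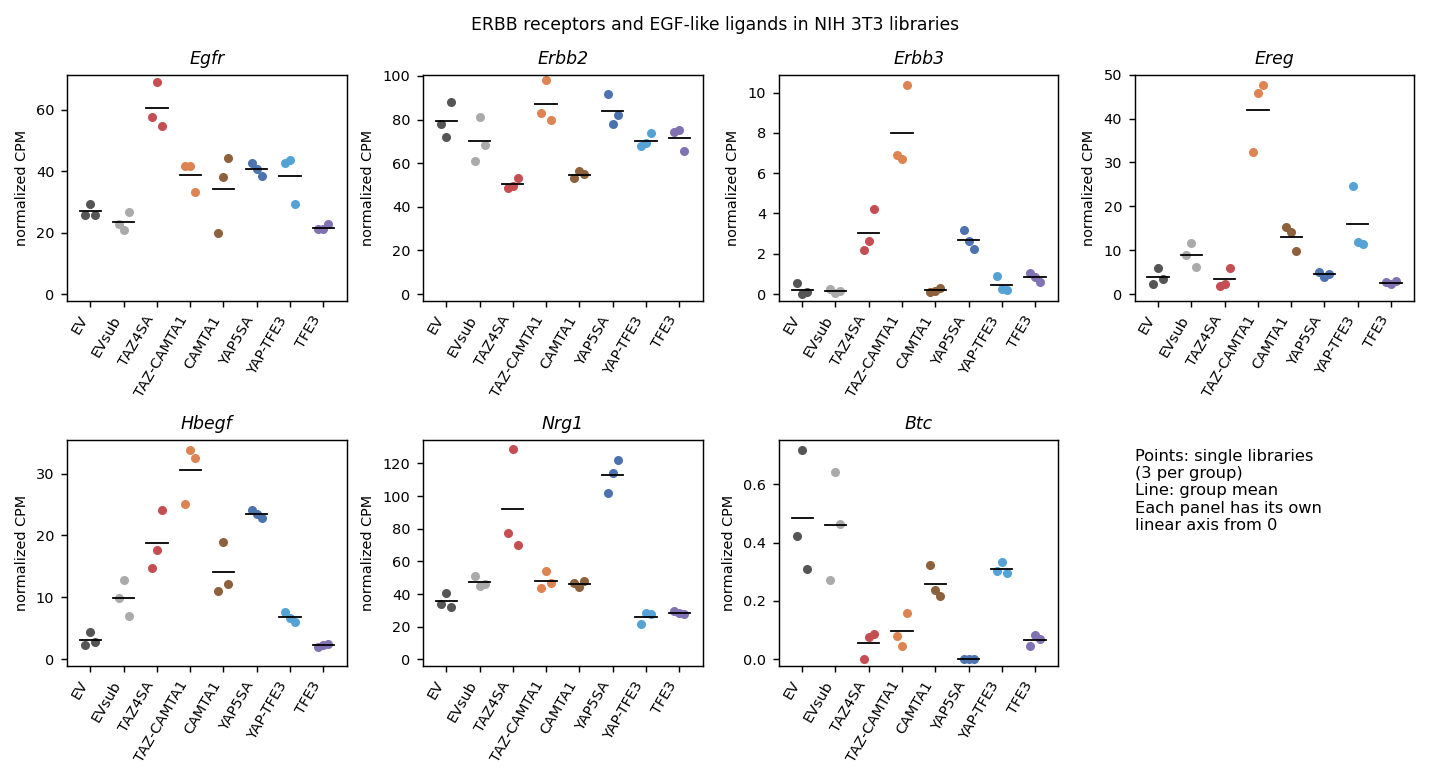
Each panel shows one of the 7 tested genes, with the normalized CPM of every library as a point, the group mean as a line and the 8 groups along the axis; each panel has its own linear axis from 0. Ereg stands highest in TAZ-CAMTA1 (32.5 to 47.8 CPM), Nrg1 in YAP5SA and TAZ4SA (69.8 to 129 CPM), and Btc in the empty vector groups.

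Of the ligands, Ereg set the fusion proteins apart from the activated full-length proteins. The gene (ENSMUSG00000029377, chr5:91074622-91093646, + strand) encodes epiregulin, which binds EGFR and ERBB4. Its libraries held 2.24, 5.82 and 3.49 CPM in EV, 32.5, 45.8 and 47.8 CPM in TAZ-CAMTA1, and 24.7, 11.7 and 11.4 CPM in YAP-TFE3. The libraries of both fusion proteins lay above those of EV, TAZ4SA, YAP5SA and TFE3. YAP-TFE3, with a mean of 15.9 CPM, overlapped the sub-confluent groups CAMTA1 and EVsub, with means of 13.1 and 8.85 CPM. TAZ-CAMTA1 lay above both.

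The means of the confluent full-length proteins were close to EV, with 3.43 ± 2.26 CPM (SD, n = 3) in TAZ4SA, 4.49 ± 0.563 CPM in YAP5SA and 2.58 ± 0.344 CPM in TFE3. Ereg rose by 3.45 ± 0.38 on the log2 scale in TAZ-CAMTA1 (edgeR adjusted p = 8.7e-07) and by 2.05 ± 0.37 in YAP-TFE3 (adjusted p = 0.000464). TAZ4SA differed from EV by -0.12, with an interval of -0.97 to 0.73, and YAP5SA by 0.23, with an interval of -0.61 to 1.06. Neither interval reaches the rise seen in TAZ-CAMTA1 or YAP-TFE3.

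The direct contrasts gave TAZ-CAMTA1 over TAZ4SA by 3.57 ± 0.39 (edgeR adjusted p = 2.03e-07), a 12.3-fold ratio of means. YAP-TFE3 exceeded YAP5SA by 1.82 ± 0.37 (adjusted p = 0.000169 in edgeR) and TFE3 by 2.62 ± 0.39 (adjusted p = 2.64e-05). Without TAZ4SA replicate 3, whose 6.02 CPM lay above 1.93 and 2.32 CPM in the other two, the first of these was 4.31. Between the fusion proteins, YAP-TFE3 was lower by 1.40 ± 0.34 (edgeR adjusted p = 0.00939), and that call was lost without YAP-TFE3 replicate 2 or 3 (adjusted p = 0.0550 and 0.0552).

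Ereg also differed with the density of the cells. EVsub held 8.83, 11.6 and 6.08 CPM, each above the EV libraries, with a log2 fold change of 1.21 ± 0.37 (edgeR adjusted p = 0.0234). This call was lost without EV replicate 1 or 3 or EVsub replicate 1 or 2, at adjusted p of 0.127, 0.0854, 0.0532 and 0.126, and in a fit of only EVsub and EV (0.0602). CAMTA1, also sub-confluent, held 15.2, 14.1 and 9.83 CPM and overlapped EVsub, at 0.56 ± 0.35 (edgeR adjusted p = 0.404).

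Hbegf rose in every group with a TAZ or YAP part. The gene (ENSMUSG00000024486, chr18:36504927-36515805, - strand) encodes HB-EGF, a heparin-binding ligand of EGFR and ERBB4. The EV libraries held 2.24, 4.44 and 2.87 CPM, against 14.7, 17.6 and 24.1 CPM in TAZ4SA, 25.1, 33.9 and 32.6 CPM in TAZ-CAMTA1, and 24.2, 23.5 and 22.9 CPM in YAP5SA. YAP-TFE3, at 7.72, 6.66 and 6.07 CPM, stood between EV and these 3 groups without overlapping either. It overlapped the sub-confluent EVsub, whose mean was higher, at 9.92 CPM against 6.82 CPM.

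The rises of Hbegf against EV were 3.27 ± 0.26 on the log2 scale in TAZ-CAMTA1 (edgeR adjusted p = 1.5e-08), 2.89 ± 0.26 in YAP5SA (adjusted p = 2.32e-09), 2.57 ± 0.26 in TAZ4SA (adjusted p = 3.94e-08) and 1.10 ± 0.26 in YAP-TFE3 (adjusted p = 0.00489). TFE3 did not pass the test, at -0.48 ± 0.28. YAP-TFE3 was below YAP5SA by 1.79 ± 0.24 (edgeR adjusted p = 9.82e-07) and below TAZ-CAMTA1 by 2.16 ± 0.24 (adjusted p = 3.12e-06), and above TFE3 by 1.58 ± 0.27 (adjusted p = 0.000125). TAZ-CAMTA1 exceeded TAZ4SA by 0.69 ± 0.23 (edgeR adjusted p = 0.0145), which was lost without TAZ4SA replicate 1 (adjusted p = 0.0833) or TAZ-CAMTA1 replicate 2 (0.0552).

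Hbegf was higher at sub-confluence as well. The EVsub libraries held 9.93, 12.8 and 7.01 CPM, each above the EV libraries, a log2 fold change of 1.65 ± 0.26 (edgeR adjusted p = 0.000119). CAMTA1, at 11.1, 19.0 and 12.1 CPM, overlapped EVsub (0.49 ± 0.24, edgeR adjusted p = 0.269).

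Nrg1 was highest with the activated full-length proteins, TAZ4SA and YAP5SA. Its mean was not raised by full-length TFE3 (28.5 CPM against 35.5 CPM in EV) or CAMTA1 (46.3 CPM against 47.3 CPM in EVsub). The gene (ENSMUSG00000062991, chr8:31814551-32884029, - strand) encodes neuregulin 1, a ligand of ERBB3 and ERBB4. The EV libraries held 33.8, 40.4 and 32.3 CPM, the TAZ4SA libraries 77.5, 129 and 69.8 CPM, and the YAP5SA libraries 102, 114 and 122 CPM. Both groups lay above every library of the other 6 groups.

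Nrg1 rose by 1.67 ± 0.17 on the log2 scale in YAP5SA (edgeR adjusted p = 1.27e-08) and by 1.37 ± 0.17 in TAZ4SA (adjusted p = 5.12e-07). TAZ-CAMTA1, at 43.8, 54.2 and 46.4 CPM, was below TAZ4SA by 0.93 ± 0.16 (edgeR adjusted p = 6.93e-05). YAP-TFE3, at 21.6, 28.6 and 27.9 CPM, was below YAP5SA by 2.11 ± 0.17 (edgeR adjusted p = 6.05e-10) and below TAZ-CAMTA1 by 0.89 ± 0.17 (adjusted p = 0.00102).

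Against EV, the Nrg1 values of the fusion proteins pointed in opposite directions and missed the threshold narrowly. TAZ-CAMTA1 stood at 0.44 ± 0.17 (edgeR adjusted p = 0.0612) and YAP-TFE3 at -0.45 ± 0.17 (adjusted p = 0.0759), each without overlap with EV. These calls depended on the setting. TAZ-CAMTA1 passed with a replicate block (edgeR adjusted p = 0.0495), with library totals (0.0371), with no filter (0.0313) and in a fit of only the groups compared (0.0183), and YAP-TFE3 passed in DESeq2 (adjusted p = 0.0484), with library totals (0.0357) and with no filter (0.0473). Without TAZ4SA replicate 2, the highest Nrg1 library of all, they had adjusted p of 0.00666 and 0.00853 in edgeR, and YAP5SA stood above TAZ4SA by 0.61 (adjusted p = 0.00045) where it had stood at 0.29 (adjusted p = 0.154). EVsub, at 0.41 ± 0.17 above EV, moved from an adjusted p of 0.0770 to 0.00999 without that library, and passed with library totals (0.0429) and with no filter (0.0461). All 3 comparisons passed without TAZ4SA replicate 3 as well (edgeR adjusted p from 0.0283 to 0.0380), and TAZ-CAMTA1 passed without EV replicate 2 (adjusted p = 0.0395). Exons of Gm26578 overlap those of Nrg1 on the opposite strand, with 75 to 348 counts per library against 430 to 2324 for Nrg1.

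Btc was low throughout and fell in TAZ4SA, TAZ-CAMTA1, YAP5SA and TFE3. The gene (ENSMUSG00000082361, chr5:91357261-91402994, - strand) encodes betacellulin, a ligand of EGFR and ERBB4. Its counts were 10, 15 and 7 in EV, 6, 18 and 11 in EVsub, and 6, 10 and 7 in YAP-TFE3. They were 0, 1 and 2 in TAZ4SA, 2, 1 and 4 in TAZ-CAMTA1, 1, 2 and 2 in TFE3 and 0 in all YAP5SA libraries. EV had more in every library than TAZ4SA, TAZ-CAMTA1, YAP5SA and TFE3 had in any.

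At the floor of 3 counts per library, Btc was at least 2.95-fold lower in YAP5SA than in EV (edgeR adjusted p = 8.33e-06). The ratio to EV was 0.112 in TAZ4SA, with an exact 95% counting interval of 0.0220 to 0.358 (edgeR adjusted p = 0.000355), and 0.141 in TFE3, with an interval of 0.0427 to 0.363 (adjusted p = 0.00753). These intervals cover counting error only. The fitted log2 fold change in TAZ4SA, -3.04, was -2.45 without TAZ4SA replicate 1 and -3.77 without TAZ4SA replicate 3, and passed in both cases. The fall in TAZ-CAMTA1 was 2.23 ± 0.52 on the log2 scale (edgeR adjusted p = 0.00415), and the value was -2.78 without TAZ-CAMTA1 replicate 3. YAP-TFE3 did not fall detectably against EV (-0.61, interval -1.51 to 0.30) and had at least 1.90-fold more than YAP5SA (edgeR adjusted p = 6.64e-05) and 4.69-fold more than TFE3, with a counting interval of 1.74 to 15.8 (adjusted p = 0.011). Btc was the single gene of the 7 that was DE in TFE3 by edgeR, and DESeq2 gave no adjusted p for it there.

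Areg, Epgn and Tgfa stayed near the floor in all groups. Areg (ENSMUSG00000029378, chr5:91139599-91148432, + strand) had 0 to 9 counts per library, Epgn (ENSMUSG00000035020, chr5:91027464-91035215, + strand) 0 to 9, and Tgfa (ENSMUSG00000029999, chr6:86195223-86275719, + strand) 0 or 1. Tgfa was at the floor in all 8 groups, Areg in 4 of them and Epgn in 1. Areg had no count in any of the 3 YAP5SA libraries and 1, 2 and 1 counts in EV. At this depth a change of these genes was not detectable against EV. Without the filter on low counts, 1 of their comparisons passed the test, Areg in YAP-TFE3 against YAP5SA, with 2, 4 and 2 counts against 0 in each (edgeR adjusted p = 0.0334).

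Since Ereg, Areg, Epgn and Btc lie within one stretch of chromosome 5, the genes around Ereg were examined as well. The nearest neighbours of Ereg, Epgn and Areg, stayed low where Ereg rose: their highest count in any TAZ-CAMTA1 library was 9 for Epgn and 2 for Areg, against 803 to 1197 for Ereg. Mthfd2l, a mitochondrial folate enzyme gene that starts 144 kb before Ereg, moved little in the fusion proteins (0.31 in TAZ-CAMTA1, edgeR adjusted p = 0.0782, and -0.03 in YAP-TFE3). It rose slightly in TAZ4SA and YAP5SA, by 0.38 and 0.42 (edgeR adjusted p = 0.0123 and 0.00458). Cxcl1, a chemokine gene that starts 183 kb before Ereg, rose in both fusion proteins, by 4.50 ± 0.45 in TAZ-CAMTA1 and 3.28 ± 0.46 in YAP-TFE3 (edgeR adjusted p = 2.05e-07 and 2.66e-05). It rose as well in TAZ4SA, by 3.27 ± 0.47, and in YAP5SA, where Ereg did not.

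**Figure D4:**
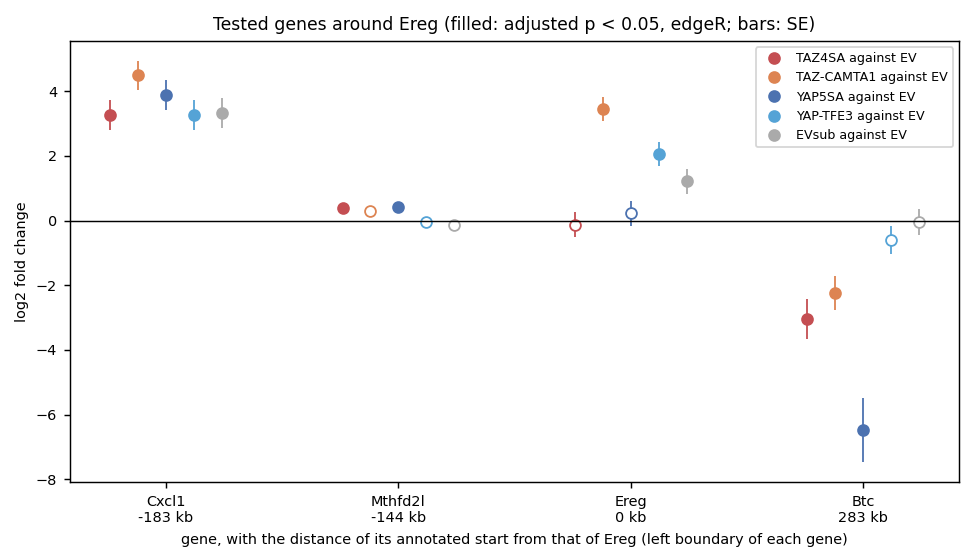
For the tested genes within 300 kb of Ereg, ordered along the chromosome with the distance of their annotated left end from that of Ereg, the log2 fold change against EV is shown for TAZ4SA, TAZ-CAMTA1, YAP5SA, YAP-TFE3 and EVsub, with the SE as a bar and filled points where the edgeR adjusted p was under 0.05. Ereg is high in the fusion proteins and near 0 in TAZ4SA and YAP5SA, Cxcl1 is high in all 5, and Btc, whose fitted value in YAP5SA rests on 0 counts, is low in TAZ4SA, TAZ-CAMTA1 and YAP5SA.

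Farther out, Parm1 starts 443 kb after Ereg and was almost absent in EV. It reached 8.84 ± 1.78 CPM (SD, n = 3) in TAZ4SA and 1.67 ± 0.930 CPM in YAP5SA, and had no count in TAZ-CAMTA1. Cxcl5, 315 kb before Ereg, rose in TAZ-CAMTA1 by 2.95 ± 0.38 and in TAZ4SA by 1.92 ± 0.39 on the log2 scale (edgeR adjusted p = 6.82e-06 and 0.000252), and its change in YAP-TFE3, 0.62 ± 0.41, did not pass the test. Rassf6, a gene of the RAS-association domain family that lies before Cxcl5, had 0.105 ± 0.0328 CPM in EV and was higher in TAZ4SA (1.75 ± 1.72 CPM), TAZ-CAMTA1 (1.29 ± 0.364 CPM) and YAP5SA (1.47 ± 0.542 CPM), with edgeR adjusted p of 0.000105, 0.00207 and 0.000209. In YAP-TFE3, at 0.358 ± 0.258 CPM, it did not pass the test.

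The rest of the family added little. Of Erbb4, Egf, Nrg2, Nrg3 and Nrg4, only Egf and Nrg4 reached the mean of 5 counts, and Erbb4 and Nrg3 had no count in any library. Nrg4, with a mean of 7.67 counts, was DE and higher in YAP-TFE3 than in YAP5SA, where 70.9% of all genes were DE. Egf, the founding ligand of EGFR, rose in TAZ4SA by 0.79 ± 0.25 on the log2 scale (edgeR adjusted p = 0.0104), from 1.66 to 2.86 CPM, and was lower in TAZ-CAMTA1 than in TAZ4SA by 1.09 ± 0.26 (adjusted p = 0.00123).

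Among the genes that release the ligands, Rhbdf2 rose and Adam10 and Adam17 fell in both activated full-length proteins. Of the 6 genes of this list, all tested, 1 rose and 2 fell in TAZ4SA, beside 57.5% of all genes DE, and 2 rose and 3 fell in YAP5SA, beside 71.2%, so that these counts do not stand apart from the background. In TAZ-CAMTA1 1 rose and 1 fell, beside 21.5% of all genes, in YAP-TFE3 1 rose, beside 15.3%, and in TFE3 1 fell, beside 3.37%. Rhbdf2, which encodes iRhom2, a partner that ADAM17 needs to mature, rose by 2.53 ± 0.17 in TAZ4SA and 1.85 ± 0.17 in YAP5SA on the log2 scale (edgeR adjusted p = 1.76e-10 and 3.92e-09). Adam10, a sheddase, fell by 0.99 ± 0.15 and 1.67 ± 0.16 in the same groups (edgeR adjusted p = 1.26e-05 and 5.01e-09). Adam17, the main sheddase of several EGFR ligands, fell by 0.61 ± 0.09 in TAZ4SA and 1.20 ± 0.09 in YAP5SA and rose by 0.34 ± 0.09 in YAP-TFE3 (edgeR adjusted p = 8.95e-06, 3.13e-10 and 0.0139). It was also lower in EVsub than in EV, by 0.39 ± 0.09 (edgeR adjusted p = 0.004).

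In TAZ-CAMTA1 the 2 calls of the release list were Timp3, an inhibitor of these proteases, which fell by 0.73 ± 0.19 (edgeR adjusted p = 0.00754), and Rhbdf1, which rose by 0.49 ± 0.13 (adjusted p = 0.0101). Timp3 also fell in YAP5SA, by 0.65 ± 0.19, and in TFE3, by 0.69 ± 0.19 (edgeR adjusted p = 0.00454 and 0.0453). Both fusion proteins had less Rhbdf2 than the matching full-length protein, by 2.50 ± 0.17 for TAZ-CAMTA1 against TAZ4SA and 1.80 ± 0.17 for YAP-TFE3 against YAP5SA (edgeR adjusted p = 4.1e-10 and 6.27e-09).

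Among 10 genes of receptor restraint and turnover, 2 rose and 4 fell in TAZ4SA, 4 rose and 5 fell in YAP5SA, 1 rose and 2 fell in TAZ-CAMTA1, and 1 fell in each of YAP-TFE3 and TFE3. The shares of all genes DE in these comparisons were 57.5%, 71.2%, 21.5%, 15.3% and 3.37%, so that the count in TAZ4SA lies at the background. Socs5, a negative regulator of EGFR, fell by 1.30 ± 0.12 in TAZ4SA, 1.75 ± 0.12 in YAP5SA and 0.60 ± 0.12 in TAZ-CAMTA1 on the log2 scale (edgeR adjusted p = 9.67e-09, 4.32e-11 and 0.000717). Errfi1, which encodes the feedback inhibitor MIG6, fell by 0.90 ± 0.25 in YAP5SA (edgeR adjusted p = 0.00254). Cblb, a ubiquitin ligase, fell in all 4 groups with a TAZ or YAP part, by 0.62 ± 0.13 in TAZ-CAMTA1, 0.45 ± 0.13 in TAZ4SA, 0.43 ± 0.13 in YAP-TFE3 and 0.36 ± 0.13 in YAP5SA (edgeR adjusted p = 0.00177, 0.00689, 0.029 and 0.0203). It was also lower in EVsub than in EV, by 0.51 ± 0.13 (edgeR adjusted p = 0.00907).

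Of 21 adaptors and effectors, 11 rose and 6 fell in TAZ4SA and 9 rose and 6 fell in YAP5SA. TAZ-CAMTA1 had 3 higher and 3 lower, YAP-TFE3 had 3 higher and 1 lower, and none was DE in TFE3 or, against EVsub, in CAMTA1. The shares of all genes DE were 57.5% in TAZ4SA, 71.2% in YAP5SA, 21.5% in TAZ-CAMTA1 and 15.3% in YAP-TFE3. In TFE3 and CAMTA1 the shares were 3.37% and 2.18%. The counts in YAP5SA and YAP-TFE3 lie near the background. Pik3r1, the p85-alpha regulatory subunit of PI3-kinase, fell by 2.22 ± 0.17 in TAZ4SA and fell by 3.13 ± 0.18 in YAP5SA on the log2 scale, more than any other gene of the list (edgeR adjusted p = 1.14e-09 and 4.52e-12). Pik3cb, a catalytic subunit, rose by 1.29 ± 0.15 and 1.79 ± 0.15 in these groups (edgeR adjusted p = 2.39e-07 and 7.83e-10). Shc1, an adaptor of the receptors, fell in TAZ4SA, YAP5SA, TAZ-CAMTA1 and YAP-TFE3, by 0.82, 1.00, 0.67 and 0.62 (edgeR adjusted p from 2.2e-06 to 0.004), and was lower in EVsub than in EV by 0.50 (adjusted p = 0.0148). The share of the list that was DE in each group is to be read against the share of all genes given above.

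The genes whose levels most resembled each member were sought over the 24 libraries, which share groups and depth, as a description. The Pearson correlation of log2 CPM was 0.95 between Ereg and Adam9. For Hbegf it was 0.96 with Epha2, Fyb2 and Gja1, and for Nrg1 it was 0.97 with Nob1. The closest gene to Erbb3 was Rapgef3 (0.87), to Egfr Il6st (0.89), to Erbb2 Sh2b1 (0.90) and to Btc Il13ra1 (0.91). Among the members themselves, Hbegf and Nrg1 (0.69) and Hbegf and Egfr (0.63) were the most alike, Erbb3 and Btc were opposed (-0.77), and Ereg had -0.20 with Nrg1.

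Promoter windows, from 250 bases before to 50 after the RefSeq start (GRCm38.p6), were at hand for 6 of the 10 genes, Epgn, Areg, Btc, Tgfa, Egfr and Erbb2. They were searched on both strands for GGAATG, the core of the site of TEAD, the DNA-binding partner of TAZ and YAP, for TGANTCA, the AP-1 site, and for CACGTG, an E-box bound by TFE3. Of 32851 windows of all genes, 14.7% held the first, 7.81% the second and 7.15% the third. Among the 6 windows there was 1 match, a GGAATG that begins at -88 from the start of Erbb2. It is shown in capitals with 12 bases on each side.
Erbb2: cccagtcttgctGGAATGcagttggagggg
The match is a description of the sequence, and no binding was measured in these libraries.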

How the data were processed

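Per library, the authors deposited a file of raw read counts by Ensembl gene, with no scaling. By the study's methods, reads were processed with bcbio-nextgen 1.0.8, aligned with Hisat2 to mm10 with Ensembl release 97 and, apart from that, pseudo-aligned with Salmon and summed to gene counts by tximport. Which of these routes gave the deposited counts is not given in the sources used here. Groups and replicate numbers came from the sample titles. One YAP-TFE3 library has a description that names another replicate, and its title was used. The members, lists and comparisons were chosen with earlier results of these data known.

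All 24 libraries entered a single fit of edgeR 4.0.16 (R 4.3.3): quasi-likelihood test, TMM, a coefficient per group, a mean count of 5 or more (14361 genes), Benjamini-Hochberg adjustment. P-values measure the spread between separately transduced pools of 1 line. DESeq2 1.42.0 and 8 other settings were alternatives. Symbols and exon lengths came from GENCODE M21, which matched 37693 of 39017 identifiers. The floor was 3 counts per library. Named were all members, the 2 largest calls of each list together with others of it chosen after their values were seen, the 3 most alike genes, of which 1 or more are given, and neighbours within 500 kb. The model was tested on simulated counts in which only a small share of genes changed. Changes as broad as those in TAZ4SA and YAP5SA were not simulated. No set test was run, and the planned protein comparison was not made.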

Additional observations from a re-analysis of the deposited data

How the results depend on the processing

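The log2 fold changes were recomputed over the 7 tested genes, 12 comparisons and all alternatives. Of these, 2543 kept their side of the threshold, 36 passed it newly, 20 lost it and 2 reversed. A reversal was counted only where the gene was DE before or after. Values that were not DE could change sign among the 2543. Erbb3 in EVsub against EV ranged from -1.45 to 1.48 over the settings. Both reversals belong to Erbb2 with library totals in place of TMM, at -0.29 in YAP5SA against EV and 0.10 in YAP-TFE3 against YAP5SA. That scaling moved the median of all genes by -0.37 in YAP5SA and -0.17 in TAZ4SA against EV, and changes are given relative to the TMM scale. With it the share of DE genes that were higher was 34.5% where it was 51.0% in YAP5SA, and 41.9% where it was 54.1% in TAZ4SA. It was 62.0% and not 48.5% in TAZ-CAMTA1 against TAZ4SA, 67.6% and not 51.4% in YAP-TFE3 against YAP5SA, and 27.4% and not 46.2% in YAP5SA against TAZ4SA. Egfr lost its call in YAP5SA against EV (0.22, edgeR adjusted p = 0.326) and in TAZ-CAMTA1 against TAZ4SA (-0.46, adjusted p = 0.0548).

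Where a log2 fold change of 1 or more in either direction was required too, the DE genes against EV numbered 5682 (YAP5SA), 3525 (TAZ4SA), 1123 (TAZ-CAMTA1), 877 (YAP-TFE3) and 139 (TFE3), 151 for CAMTA1 against EVsub, 961 for EVsub against EV, 3019 for TAZ-CAMTA1 against TAZ4SA, 5606 for YAP-TFE3 against YAP5SA, 1179 for YAP-TFE3 against TFE3, 599 for YAP-TFE3 against TAZ-CAMTA1 and 1739 for YAP5SA against TAZ4SA, and the family counts fell to 2 for TAZ-CAMTA1 against TAZ4SA and 0 for YAP5SA against TAZ4SA. For CAMTA1 against EVsub, DESeq2 called 636 genes and 1 family member. With no filter (24737 genes) 674 genes were DE there, and the family counts were 4 in YAP-TFE3 and 2 in TFE3 against EV. Fits restricted to the pair of groups compared gave 1512 for TFE3 and 1683 for EVsub against EV (1 family member in EVsub), 22 for CAMTA1 against EVsub, 4952 for YAP-TFE3 against TFE3, 2572 for YAP-TFE3 against TAZ-CAMTA1 and 2910 for YAP5SA against TAZ4SA. The causes were not tested.

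With each library left out in turn, DE genes ranged from 72 to 709 for CAMTA1 against EVsub, 1971 to 3846 for EVsub against EV, 2010 to 3760 for TAZ-CAMTA1, 192 to 706 for TFE3 and 1133 to 2757 for YAP-TFE3 against EV, and 835 to 2229 for YAP-TFE3 against TAZ-CAMTA1. Family counts ranged from 0 to 1 for CAMTA1 against EVsub, 1 to 3 for EVsub against EV and for YAP5SA against TAZ4SA, 1 to 2 for TFE3 and 2 to 3 for YAP-TFE3 against EV, and 3 to 5 for YAP-TFE3 against TAZ-CAMTA1. Deviations of same-numbered libraries correlated at -0.21 to 0.41. In CAMTA1 against EVsub the values were 0.25, -0.0025 and 0.41 for replicates 1 to 3. Differently numbered libraries were not compared in this way, so whether the replicate numbers pair the libraries is not settled. A replicate block changed 1 member call, Nrg1 in TAZ-CAMTA1 against EV (0.44, edgeR adjusted p = 0.0495), which gave 5 members DE there. At this depth Areg, Epgn and Tgfa, and the ratios of Btc, are limited by counting error.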
